A study of Mus musculus with 4 samples.

Results

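The 7 genes described here encode enzymes of haem synthesis: Alas1, Alad, Uros, Urod, Cpox, Ppox and Fech. They were matched to the gene name that the array files give each probe, ignoring case. A probe carried the name of 5 of the 7, with 10 probes among them, out of 18702 gene names and 170260 probes with a position. Urod and Ppox had no probe under their name. Alad was picked for its high ratio in these tumours, so the levels of the 7 genes are a description and are given without a test.

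The assay was array comparative genomic hybridisation, which compares the DNA of a sample with that of a reference at each probe. Tumour DNA came from the livers of 4 mice labelled male, numbered 239, 240, 244 and 252, with the genotype FAH-/- Trp53-/-. These mice lacked the tyrosine-breaking enzyme fumarylacetoacetate hydrolase and the p53 tumour suppressor. NTBC, which inhibits tyrosine breakdown upstream of the missing enzyme, was given at a full dose of 7.5 mg per L and then for 6 months at 2.5% of that dose. The reference was liver DNA of 3 FAH+/+ Trp53+/+ littermates, pooled into 1 control sample, so control livers could not be compared with one another. The tumour was labelled with Cy5 and the pool with Cy3 throughout, without a dye swap. Each value is a log2 ratio, tumour over pool, with the array centred on its median over chromosomes 1 to 19, and positions are those of mm9. The labels used here give neither the age nor the strain of the mice. DNA holds no expression markers, so the labelled tissue could not be checked. A smaller share of tumour cells and fewer gene copies per tumour cell cannot be told apart.

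Haem is made from glycine and succinyl-CoA by a chain of enzymes that begins and ends in mitochondria and runs through the cytosol between. The liver is a major site of haem synthesis, for its cytochrome P450 enzymes. Alad encodes delta-aminolevulinic acid dehydratase (porphobilinogen synthase), which joins pairs of aminolevulinic acid into porphobilinogen. Cells without fumarylacetoacetate hydrolase form succinylacetone, a strong inhibitor of that enzyme. The number of Alad copies is also known to differ between inbred mouse strains. Non-tumour DNA of the same mice was not analysed here, so a difference acquired in a tumour and one already present in the mouse cannot be told apart.

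The 3 probes below carry the pattern on which the account of Alad turns, in order along chromosome 4. Each is a probe of 60 bases as printed in the array files, 5′ to 3′, and the files do not give its strand. The probes start at 62164667, 62175437 and 62182522, contain 22, 22 and 21 G or C bases, and share no stretch of 20 bases with another probe on the array. Whether they lie in an exon or an intron was not examined, since no annotation of mm9 was used.
unnamed probe, chr4:62164667-62164726: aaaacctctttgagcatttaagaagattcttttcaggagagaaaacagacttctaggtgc
Alad, chr4:62175437-62175496: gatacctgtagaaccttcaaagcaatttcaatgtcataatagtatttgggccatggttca
unnamed probe, chr4:62182522-62182581: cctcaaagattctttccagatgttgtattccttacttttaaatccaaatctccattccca

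The probes below stand for members of the pathway whose values are set against Alad. They include both probes of Uros, which gave different ratios.
Alas1, chr9:106143571-106143630: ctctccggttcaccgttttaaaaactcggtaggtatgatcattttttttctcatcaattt
Uros, chr7:140880823-140880882: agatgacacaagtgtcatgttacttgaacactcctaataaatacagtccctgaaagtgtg
Uros, chr7:140893849-140893908: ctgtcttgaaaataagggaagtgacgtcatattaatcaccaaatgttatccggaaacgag
Cpox, chr16:58678519-58678578: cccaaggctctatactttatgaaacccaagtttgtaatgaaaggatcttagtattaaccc

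The 4 arrays lay on 1 slide in 1 scan, with 180880 spots each, and per array and colour 98.8% to 99.9% of them passed the scanner's background test. A single probe is a noisy measure: the SD between neighbouring probes was 0.31, 0.35, 0.37 and 0.39 in tumours 239, 240, 244 and 252. Tumour 252 went against its label of male on the sex chromosomes, with a median of 0.73 on X and -2.43 on Y. The other 3 tumours lay at -0.30 to -0.09 on X and -1.20 to -0.14 on Y. The results are therefore also given without tumour 252.

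Alad was higher than the pool in each of the 4 tumours. Its 1 probe read 1.49 in tumour 239, 1.13 in tumour 240, 0.92 in tumour 244 and 1.26 in tumour 252, with a mean of 1.20 ± 0.24 (SD, n = 4). Without tumour 252 the mean was 1.18. On an autosome of diploid cells, 1 extra copy in every cell would give 0.58 and 2 extra copies would give 1, and all 4 tumours lay above the first of these levels. These levels assume 2 copies in the pool and diploid tumour cells, neither of which was measured.

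The ratio was visible in the processed signals of each colour, before the array was centred on its autosomal median. These signals already had their background subtracted and a linear dye normalisation applied. The pool's Cy3 signal at the Alad probe was 1283, 1383, 1493 and 1385 scanner units on the arrays of tumours 239, 240, 244 and 252. The tumours' Cy5 signal was 3646, 3076, 2893 and 3303 in the same order. The pool's signals and the tumours' signals did not overlap, which restates the high ratio. The pool is the same DNA on each array, and the share of all probes with such a separation was not counted. Autosomal probes as bright in Cy3 as the Alad probe had medians that averaged -0.05 over the tumours.

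**Figure D1:**
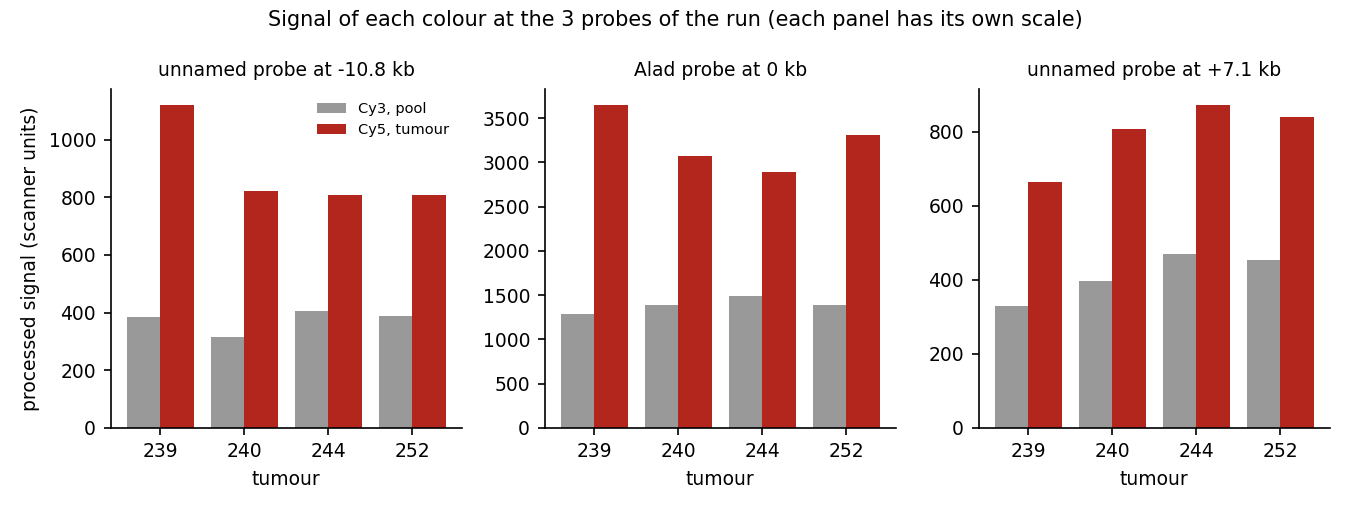
Processed signal in scanner units (y axis, from 0, with a scale of its own in each panel) at the Alad probe and the 2 probes beside it, by tumour (x axis). Grey bars are the pool's Cy3 signal and red bars the tumour's Cy5 signal, 1 spot value per bar, and the red bar is the taller in every pair.

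The high ratio did not extend over chromosome 4. Medians of chromosome 4 were -0.01, -0.01, -0.21 and 0.00 in tumours 239, 240, 244 and 252. With them taken off, Alad stood at 1.50, 1.14, 1.13 and 1.26, a mean of 1.26 ± 0.17 (SD, n = 4). Tumour 244, the lowest of the 4 by its ratio, thus came level with tumour 240. The other 39 probes within 200 kb of Alad, 2 high ones beside it included, averaged 0.13, 0.07, -0.16 and 0.07, a mean of 0.03 ± 0.13 (SD, n = 4). Alad exceeded them by 1.35 in tumour 239, 1.06 in tumour 240, 1.08 in tumour 244 and 1.19 in tumour 252. This difference averaged 1.17 ± 0.14 (SD, n = 4), and 1.16 without tumour 252.

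The Alad probe did not stand alone. The unnamed probe at -10.8 kb, towards lower coordinates, read 1.52, 1.36, 0.96 and 1.07 in tumours 239, 240, 244 and 252 (mean 1.22 ± 0.26, SD, n = 4). The unnamed probe at 7.1 kb, towards higher coordinates, read 0.99, 1.00, 0.85 and 0.90, with a mean of 0.94 ± 0.07 (SD, n = 4). Together the 3 neighbouring probes averaged 1.33, 1.16, 0.91 and 1.08, a mean of 1.12 ± 0.18 (SD, n = 4), and every single reading lay at 0.85 or higher. The pair beside Alad averaged 1.08 ± 0.16 (SD, n = 4). The order of the tumours differed between the probes: 239 was highest at the first 2 and 240 at the last. With another background correction (normexp), the 3 means became 0.80, 1.40 and 0.54 in order of position, and the lowest single reading fell to 0.42.

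At the first unnamed probe the pool gave 386, 316, 405 and 388 scanner units and the tumours 1120, 822, 807 and 807. At the last the pool gave 330, 397, 471 and 454 and the tumours 664, 809, 873 and 840. Both probes were dimmer than the Alad probe. Tumour and pool did not overlap at either, which again restates the high ratios. Probes as bright as these read above 0, with medians that averaged 0.18 for the first and 0.16 for the last, and the part of brightness in their ratios was not tested. The plot of the signals at the 3 probes shows the same separation on each array.

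The high probes ended sharply on the lower side. They spanned 17.9 kb, chr4:62164667-62182581. The nearest named probes outside were those of Bspry, ending at 62153187, and of 4933430I17Rik, starting at 62193220, which lie 40.03 kb apart. The 4 probes before the run averaged 0.00 ± 0.02 (SD, n = 4). The 4 probes after it averaged 0.41, 0.44, 0.06 and 0.35 in tumours 239, 240, 244 and 252 (mean 0.31 ± 0.18, SD, n = 4). Their mean lay above 0 in each tumour and below that of the run in each. In gene order from RefSeq, Hdhd3 lies between Bspry and Alad, and Pole3 between Alad and 4933430I17Rik. Neither gene had a probe under its name, so no value is assigned to them.

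**Figure D2:**
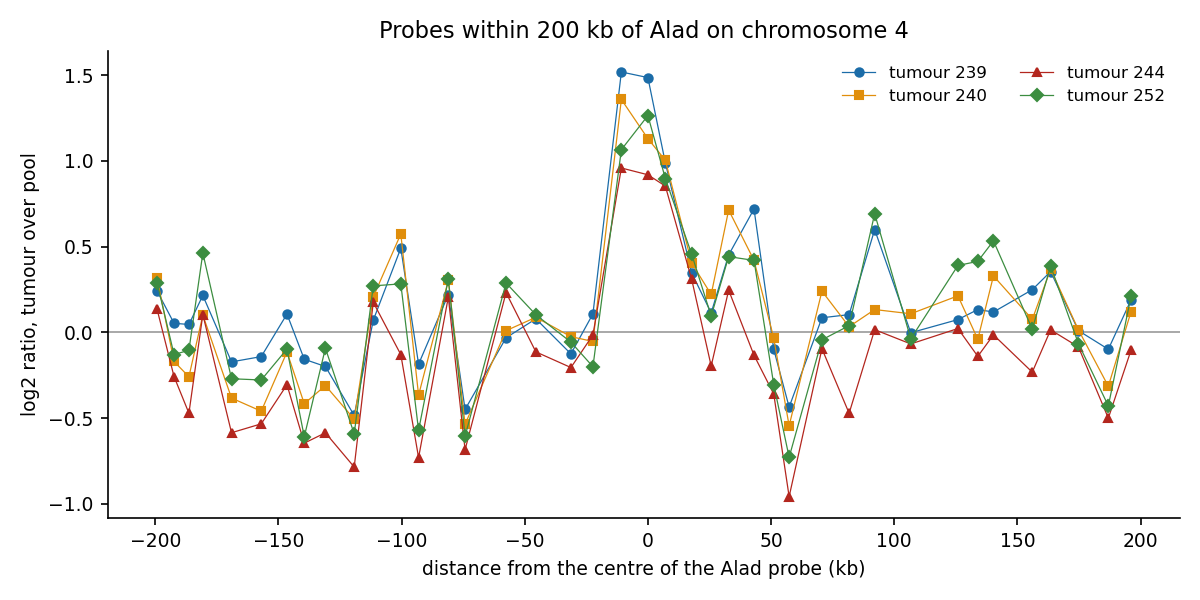
Log2 ratio of tumour over pool (y axis) at the 40 probes within 200 kb of Alad against the distance from the Alad probe in kb (x axis), with 1 line per tumour. The 3 probes from -10.8 to 7.1 kb lie between 0.85 and 1.52 in all 4 tumours, and no other probe reaches 0.5 in all 4.

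The other genes named on a probe within 200 kb of Alad did not share its level. This leaves out Hdhd3 and Pole3, which had no probe under their name. Bspry, with 2 probes, averaged -0.07 ± 0.06, and Wdr31, with 2 probes, averaged 0.08 ± 0.08 (SD, n = 4). On the other side 4933430I17Rik, with 3 probes, read 0.30, 0.45, 0.12 and 0.33 in tumours 239, 240, 244 and 252, and the 13 probes of Rgs3 averaged -0.01 ± 0.14. Rgs3 encodes a regulator of G-protein signalling. Slc31a1, the copper importer, had the lowest mean of the named genes in the window, -0.29 ± 0.18 over 3 probes (SD, n = 4). Other named genes in the window were Rnf183 at 0.26 ± 0.06 (1 probe), Prpf4 at -0.08 ± 0.27 (2 probes), Cdc26 at -0.21 ± 0.07 (2 probes) and Fkbp15 at -0.09 ± 0.14 (6 probes). The 37 probes outside the run averaged -0.03 ± 0.13 (SD, n = 4), with single readings from -0.96 to 0.72, and none of them reached 0.5 in all 4 tumours.

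Against the whole array, 149 of 161417 autosomal probes, 0.0923%, had a mean as high as that of the Alad probe or higher. A reading of 0.8 or more in all 4 tumours was found at 280 autosomal probes, 0.173%. Runs of at least 3 such probes in a row were found at 2 places on the autosomes, the run at Alad and 4 probes without a gene name at chr17:27390315-27542955 with a mean of 1.33 ± 0.11 (SD, n = 4). These shares come from the values that chose Alad, so they are a description. The limit of 0.8 lies just below the lowest reading of the run at Alad, 0.85. That reading was 0.78 with lowess and 0.42 with normexp, so the run did not reach 0.8 under either, nor 0.5 under normexp. At a lower limit of 0.5 there were 10 runs, of which 7 lay on chromosome 15. The third run away from chromosome 15 lay at chr19:34666502-34680735, named Gm14446, with a mean of 0.98 ± 0.10 (SD, n = 4).

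By gene, the mean difference from the probes within 200 kb was as large as that of Alad or larger for 7 of 17953 genes, Alad included, and 6 of these 7 were among the 6333 genes with 1 probe. The 5th to 95th percentiles of that difference over all genes were -0.38 to 0.39. The genes whose values lay nearest those of Alad over the 4 tumours, by the Euclidean distance between the log2 ratios among 17964 genes compared, were Hamp at 0.34, Sparc at 0.45, Gm14446 at 0.53, Zadh2 at 0.54 and Bpifa1 at 0.56. All 5 had 1 probe, and they lay on chromosomes 7, 11, 19, 18 and 2. Hamp encodes hepcidin, the liver hormone that controls iron export. It read 1.36, 1.30, 0.74 and 1.07 in tumours 239, 240, 244 and 252.

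Among enzyme genes on an autosome with a probe under their name, no other gene mean reached the level of Alad in any tumour. The highest of the others was that of Cpox in tumour 244, 0.56, and the lowest of Alad was 0.92. Urod and Ppox had no such probe, so their level is not known. By single probes the separation was smaller, since Alad rests on 1 probe. A Fech probe read 1.09 in tumour 244, above the 0.92 of the Alad probe there, and a Uros probe read 0.88 in tumour 240, below its 1.13. In descending order the means were 1.20 for Alad, 0.39 for Uros, 0.35 for Cpox, 0.18 for Fech and -0.17 for Alas1. The tumours' ranges of gene means of neighbours in that order overlapped for Uros and Cpox, for Cpox and Fech and for Fech and Alas1, and not for Alad and Uros.

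**Figure D3:**
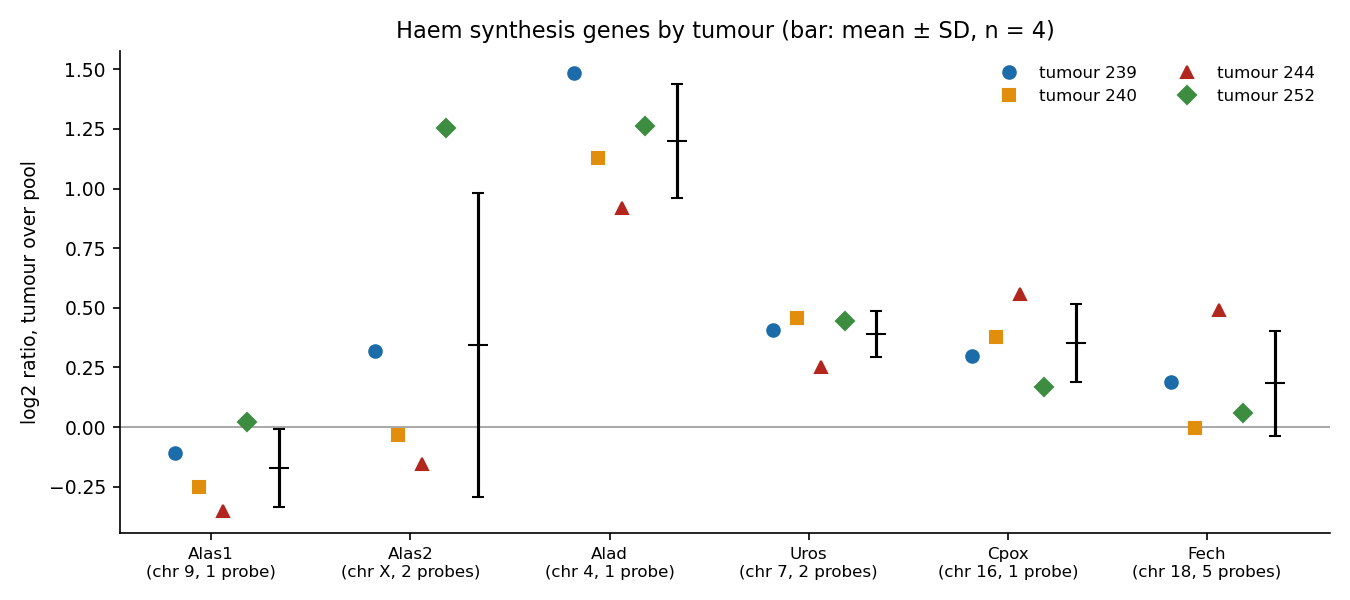
Log2 ratio of tumour over pool (y axis) for Alas1, Alas2, Alad, Uros, Cpox and Fech, in pathway order (x axis, with chromosome and number of probes). Each symbol is 1 tumour and the bar is the mean ± SD of 4 tumours, and the symbols of Alad, 1 probe from 0.92 to 1.49, lie above the gene means of the other autosomal genes shown.

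Alas1 encodes the housekeeping aminolevulinic acid synthase, the first and rate-limiting enzyme in the liver. Its 1 probe read -0.11, -0.25, -0.35 and 0.02 in tumours 239, 240, 244 and 252 (mean -0.17 ± 0.16, SD, n = 4), or -0.24 without tumour 252. The 35 probes within 200 kb of it averaged -0.10, and Alas1 differed from them by -0.07 ± 0.16 (SD, n = 4), less than the spread between tumours. Under the normexp background correction its mean was -0.50. Its erythroid counterpart, Alas2, lies on X, and its 2 probes read 0.32, -0.03, -0.16 and 1.25. The high reading is that of tumour 252, whose X as a whole read high.

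Uros encodes uroporphyrinogen III synthase, which forms the first ring-shaped intermediate of the pathway used for haem. Its gene mean over 2 probes was 0.41, 0.46, 0.25 and 0.44 in tumours 239, 240, 244 and 252, or 0.39 ± 0.10 (SD, n = 4), and 0.37 without tumour 252. The mean hides a difference between the probes. The one at 140880823 read 0.26, 0.03, 0.02 and 0.16, a mean of 0.12 ± 0.11, and the one at 140893849 read 0.55, 0.88, 0.48 and 0.73, a mean of 0.66 ± 0.18 (SD, n = 4). The second probe was the higher in every tumour, with no overlap between the probes. The 40 probes within 200 kb averaged 0.05, 0.09, -0.14 and 0.11, and the gene exceeded them by 0.36 ± 0.02 (SD, n = 4). The gene mean was 0.12 under the normexp correction, and 0.29 with the median of equally bright probes taken off.

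Urod encodes the decarboxylase that turns uroporphyrinogen into coproporphyrinogen. In RefSeq order it lies between Zswim5 and Eif2b3, whose nearest probes are 34.9 kb apart on chromosome 4. The 3 probes in that gap had means of -0.73, -0.61 and 0.17, so they did not agree on a direction. The 42 probes in and around the gap averaged -0.08, -0.03, -0.27 and -0.01 in tumours 239, 240, 244 and 252 (mean -0.10 ± 0.12, SD, n = 4). This mean lay below 0 in each tumour, where Alad, on the same chromosome, lay above.

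Cpox encodes coproporphyrinogen oxidase, the enzyme with which the pathway returns to the mitochondria. Its 1 probe read 0.30, 0.38, 0.56 and 0.17 in tumours 239, 240, 244 and 252 (mean 0.35 ± 0.16, SD, n = 4), or 0.41 without tumour 252, but -0.54 under the normexp correction. Tumour 244 was the highest, and the median of its chromosome 16 was 0.32 against 0.00 to 0.07 in the others. Cpox exceeded the 35 probes within 200 kb by 0.48, 0.43, 0.38 and 0.32, a mean of 0.40 ± 0.07 (SD, n = 4). Probes as bright in Cy3 as the Cpox probe had medians that averaged 0.27, and with these taken off Cpox stood at 0.09. Signal brightness moved with this value, and its part in it was not tested beyond those settings.

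Ppox encodes protoporphyrinogen oxidase, the enzyme before the last. In RefSeq order it lies between B4galt3 and Ufc1 on chromosome 1, whose nearest probes are 15.5 kb apart. The 1 probe in that gap read 0.27, 0.06, 0.60 and 0.27 in tumours 239, 240, 244 and 252 (mean 0.30 ± 0.22, SD, n = 4). The 38 probes in and around the gap averaged -0.02 ± 0.10 (SD, n = 4). Tumour 244 was again the highest, and the median of its chromosome 1 was 0.22 against -0.05 to 0.00 in the other 3.

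Fech encodes ferrochelatase, which inserts iron into protoporphyrin as the last step. It was the member with the most probes, 5, and these had means of -0.37, 0.37, 0.73, 0.09 and 0.10 in order of position. The gene read 0.19, 0.00, 0.49 and 0.06 in tumours 239, 240, 244 and 252 (mean 0.18 ± 0.22, SD, n = 4). Tumour 244 raised this mean: without it the mean was 0.08, and without tumour 252 it was 0.22. Chromosome 18 had a median of 0.35 in tumour 244 and of 0.01 to 0.02 in the others. The difference from the 32 probes within 200 kb was 0.20, -0.06, 0.08 and -0.04, with a mean smaller than its SD of 0.12. Under the normexp correction the gene mean was 0.49.

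**Figure D4:**
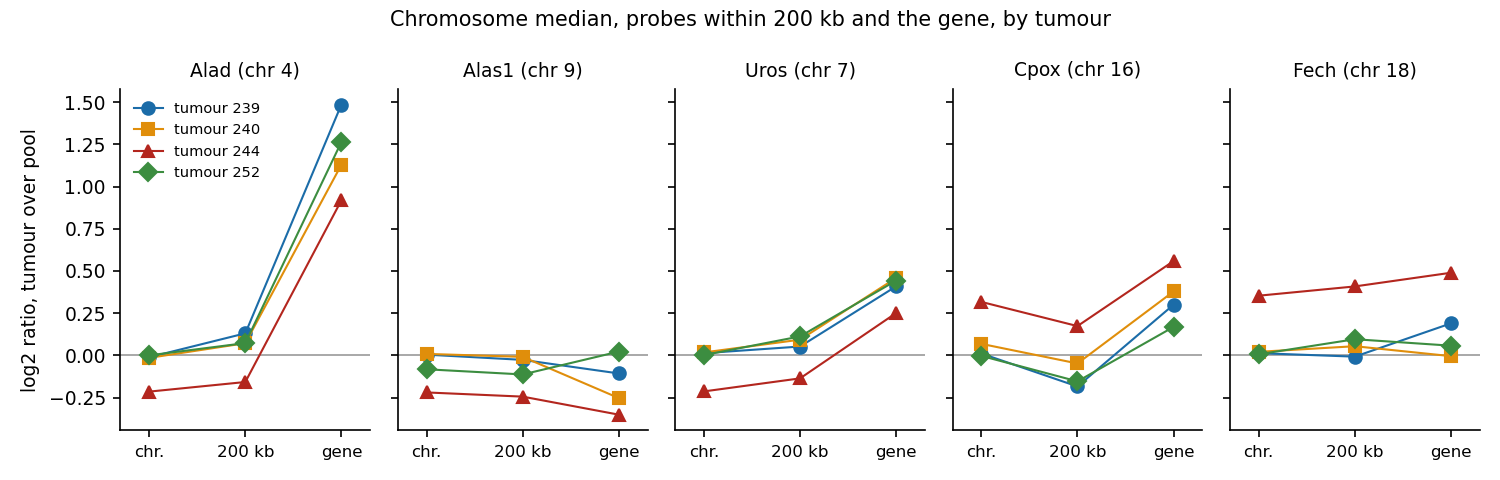
Log2 ratio of tumour over pool (y axis, shared) for the median of the chromosome, the mean of the probes within 200 kb and the gene (x axis), in 1 panel per gene with 1 line per tumour. At Alad the lines rise by 1.06 to 1.35 from the surrounding probes to the gene in all 4 tumours, and at Fech they change by -0.06 to 0.20.

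In the limma fit over all 17965 autosomal genes, 38.9% passed an adjusted p of 0.05 against a ratio of 0, with 21.2% higher and 17.7% lower. Of the 5 members with a probe, 3 passed as higher (Alad, Uros and Cpox) and 0 as lower. Since the contrast behind these calls also chose Alad, nothing is read from that count. Of genes with 1 probe, 50.1% passed (26.8% higher and 23.3% lower), and of genes with 3 or more, 29.0% (16.0% higher and 12.9% lower), so a call on a single probe was common on these arrays. Under the normexp correction the calls split into 3800 higher and 4847 lower, against 3803 and 3177.

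Genes that handle haem beyond the synthesis chain passed in both directions. A list of 35 genes, mostly of transport, breakdown and regulation, was chosen with earlier results of these data known. Of these, 30 had a probe, 3 lay on X and 27 were tested, of which 4 passed as higher and 4 as lower, or 29.6% beside 38.9% of all genes. Their median was -0.01 beside 0.02 for all genes. Without tumour 252 the number that passed fell from 8 to 5, or 18.5%, beside 25.9% of all genes at that setting.

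Hpx, which encodes the haem-binding plasma protein hemopexin made by the liver, was the lowest of the list. Its 1 probe read -0.98, -0.99, -1.19 and -0.99 in tumours 239, 240, 244 and 252 (mean -1.04 ± 0.10, SD, n = 4; limma adjusted p = 5.0e-06). Here and below, the p-value does not separate a change in DNA from a probe effect that repeats on each array. The probes within 200 kb of Hpx averaged -0.03. Slc25a37, the mitochondrial iron importer mitoferrin, read -0.74, -0.68, -0.51 and -0.59 over 4 probes (mean -0.63 ± 0.10, SD, n = 4; limma adjusted p = 0.00011). Its probe means ran from -1.25 to 0.40, so the probes did not agree on a direction. In contrast to Hpx, its surroundings were low as well, with a mean of -0.47 over the probes within 200 kb.

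Blvra, the biliverdin reductase of the haem breakdown path, passed as higher, with 0.28, 0.29, 0.49 and 0.24 over 3 probes in tumours 239, 240, 244 and 252 (mean 0.33 ± 0.11, SD, n = 4; limma adjusted p = 0.0036). The 36 probes within 200 kb of Blvra averaged 0.07, 0.17, 0.23 and 0.10 in the same order, a mean of 0.14. Blvra exceeded them by 0.19 ± 0.07 (SD, n = 4). Hpx, Slc25a37 and Blvra were the 3 list genes that passed under every alternative in which they were tested. The haem exporter Flvcr1 (0.31), the transporter Slc25a40 (0.20), the biliverdin reductase Blvrb (-0.33) and the transcriptional coactivator Ppargc1a (-0.19) passed, but not under the normexp correction. Of these, Slc25a40 also failed without tumour 240, 244 or 252 (limma adjusted p = 0.13, 0.11 and 0.13), and Ppargc1a without tumour 240 or 252 (limma adjusted p = 0.15 and 0.13). Both failed with an intensity trend taken off by lowess as well (limma adjusted p = 0.11 and 0.071). The probes within 200 kb averaged 0.18 for Flvcr1, 0.03 for Slc25a40, 0.02 for Blvrb and -0.12 for Ppargc1a. Over the probes within 200 kb of Tspo on chromosome 15 the mean was 0.26. Tspo, an outer mitochondrial membrane protein, passed at 0.23 and read -0.14 under the normexp correction. It failed without tumour 239, 244 or 252 (limma adjusted p = 0.12, 0.082 and 0.080), with lowess (0.24) and with the median of its chromosome taken off (0.59).

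By role, 2 of 11 tested mitochondrial transport and cofactor genes passed as higher and 1 as lower. Among 7 uptake and export genes 1 passed as higher and 1 as lower, among 3 breakdown genes 1 and 1, and among 5 regulators 0 and 1, beside 21.2% higher and 17.7% lower over all genes. The counts on the list varied with the setting. Without tumour 239, 3 passed as higher and 6 as lower (33.3%), beside 3629 and 3126 of all genes (37.6%). Without tumour 244 they were 2 and 5 (25.9%), beside 3431 and 2833 (34.9%). With so few list genes passing, nothing is read from their balance.

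**Figure D5:**
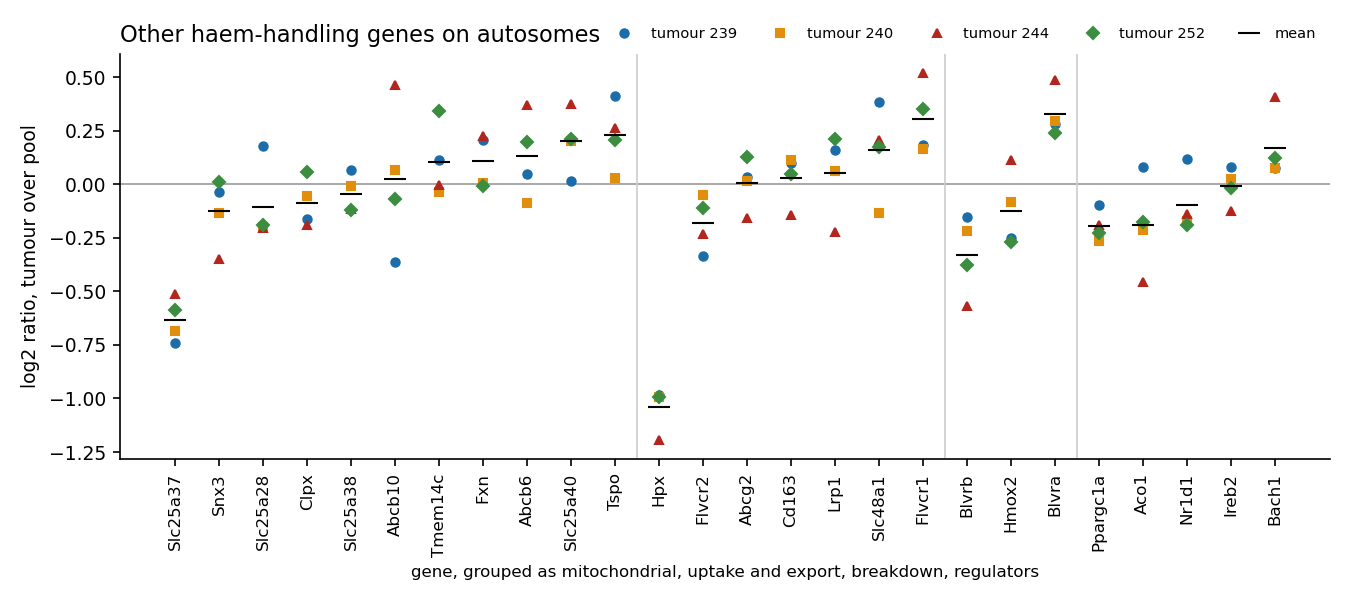
Log2 ratio of tumour over pool (y axis) for autosomal genes of the haem-handling list with a probe, grouped by role as mitochondrial transport and cofactors, uptake and export, breakdown and regulators (x axis). Symbols are tumours and the dash is their mean, and Hpx, at -1.04, lies farthest from 0.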

How the data were processed

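Per the labels, tumour DNA (Cy5) and pooled wild-type liver DNA (Cy3) were hybridised to 2-colour Agilent mouse arrays, 1 per tumour, and the tumours are separate mice. Per the submitters' processing notes, the software was Agilent Feature Extraction 12.0.0. The file headers give 12.0.1.1 and mm9. Per the file headers, the intensity used for the ratio had its background subtracted and a linear dye normalisation applied, and mean and background intensity are scanner brightness. The authors' value table holds the log10 ratio of tumour over pool, within 0.005 of the ratio from the scanner files, and its medians (0.0023, 0.00233, 0.00131 and 0.000212) show that it was not centred. Flags for outliers and for signal above background were those of the deposited files.

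Each array lost its 6575 control spots and its 95 to 120 outlier spots. A probe took the mean of its spots, log2 of Cy5 over Cy3 was centred on the autosomal median, and probes were averaged per gene, with no loess or quantile step. The test against 0 was that of limma 3.58.1 under R 4.3.3 (lmFit and eBayes, intercept only, two-sided, Benjamini-Hochberg over 17965 genes), after a check on simulated data. The simulated data held no probe effects that repeat on each array, so that check says nothing of them. Python 3.11.15, with pandas 2.3.3, numpy 2.4.6 and scipy 1.17.1, did the rest, and matplotlib 3.10.9 the plots. The number of arrays, 4, limits the precision.

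Probes of like brightness lay within 0.25 log2 units in Cy3. Gene order and older symbols came from a RefSeq table of another build, used for names and order only. The rule named the 7 members, the list genes (1 of which is not reported here), genes on probes within 200 kb of Alad and the 5 genes nearest Alad in Euclidean distance. The runs on chromosomes 17 and 19 were chosen after their values were seen. The members and lists were chosen with earlier results of these data known. Alternatives covered centring, background correction, the authors' table, an intensity trend, probe filters, probe summaries, the window around Alad, robust limma and each tumour left out. A brightness reference, a chromosome reference for single genes and neighbours outside the run were added after seeing the data.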

Additional observations from a re-analysis of the deposited data

Results flagged for a closer look

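Tumour 244 stood apart from the other 3 in the medians of 4 chromosomes that hold members: 0.22 on chromosome 1 (Ppox), -0.21 on chromosome 4 (Alad and Urod), -0.21 on chromosome 7 (Uros) and 0.35 on chromosome 18 (Fech). In each, the gap between tumour 244 and the nearest other tumour took up 0.835 to 0.958 of the whole range of the 4, above the limit of Dixon's test at the 95% level. Of 31 values looked at in this way 4 stood out. Chance marks about 1 in 20 such groups of 4. The 31 overlap in their probes, and the 4 flagged come from the same array with the same centring. They are not independent, so that rate gives no measure of an excess here. With its chromosome taken off, Alad in tumour 244 was 1.13, beside 0.92 before.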

How the results depend on the processing

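The level of Alad lay between 1.104 and 1.40 under the 13 alternatives, and between 1.104 and 1.29 with each tumour left out. Alad was picked for its high ratio on these arrays, and most alternatives reuse the same spots. With 1 probe, the median over probes equals the mean. That the level stayed above 0 is therefore no test of it. Its difference from the probes within 200 kb lay between 1.11 and 1.21 with each tumour left out, and moved to 1.50 with the normexp background correction and to 1.31 against probes from 200 kb to 1 Mb away. Cpox reversed to -0.54 under normexp. With each tumour left out, 4655 to 6755 genes passed over all genes and 5 to 9 on the list. In a separate limma fit of only the genes with at least 3 probes, 2908 passed (34.7%), and 5 on the list (35.7%). In the fit over all genes, 29.0% of the genes with at least 3 probes passed. Under normexp, 14 list genes passed, 5 higher and 9 lower, which is 51.9% beside 48.1% of all genes. The causes were not tested, except that fewer genes were tested with at least 3 probes, 8391. No paired analysis was possible because the tumours form 1 group set against 1 pool. Members with 1 probe rest on 1 spot pair per tumour. The SD between neighbouring probes, 0.31 to 0.39, also holds differences between probes that repeat on each array. Between spots of the same probe the median SD was 0.105 to 0.113, among probes with 3 or more spots.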
